A study of Mus musculus with 80 samples.

Results

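Mouse embryonic stem cells (ESCs) lacking Uhrf1 were compared with wild-type (WT) control ESCs after 168 h in 2i, by reduced representation bisulfite sequencing (RRBS), which reads cytosine methylation in the CpG-rich fraction of the genome. The knockout (KO, genotype UHRF1-/-) and the WT were each represented by 2 libraries, which makes 4 of the 80 samples of the series, and all 4 were labelled as ESCs of E14 background. Per the methods, the line carried floxed Uhrf1 alleles that a tamoxifen-inducible Cre recombined before the experiment, so the KO was a population after induced recombination; neither the share of recombined cells nor tamoxifen treatment of the WT cells was given in the sources used here. Cells were moved from medium with fetal calf serum and LIF to serum-free N2B27 with LIF, the MEK inhibitor PD0325901 and the GSK3 inhibitor CHIR99021 (2i). No RNA or protein of the UHRF1 lines was analysed here, so neither the loss of Uhrf1 nor the ESC label could be checked in these samples.

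The autosomes were divided into tiles of 500 bp, and a tile was used where each of the 4 libraries had 20 or more calls at 3 or more cytosine positions (a call is a single read over a single cytosine, either methylated or not). By this rule 28133 tiles were compared, out of 132157 that passed in at least 1 RRBS library of E14 or the UHRF1 lines. The KO libraries alone had 31817 and 57298 passing tiles, and the WT libraries 54072 and 37957, so the set of shared tiles was limited by KO library 1 and WT library 2. Tiles were then split into those with higher and those with lower methylation in the KO.

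UHRF1 binds hemimethylated CpGs behind the replication fork and brings DNMT1 there, which copies the methylation of the old strand onto the new one. It also reads methylated lysine 9 of histone H3 through its Tudor domain. Without this maintenance step methylation is diluted with each round of replication, while DNMT3A and DNMT3B can still add methylation de novo. ESCs lose most of their CpG methylation over several days in 2i.

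The 4 libraries held between 4067629 and 10818220 calls in total. The KO libraries were wide and shallow: 50.4% and 49.4% of their autosomal positions had a single call, against 16.1% and 23.7% in the WT libraries. The median tile had 70 and 167 calls in the KO libraries and 118 and 70 in the WT libraries. In tiles of intermediate level (5 to 95%), same-group libraries differed by 1.91 times (KO) and 1.73 times (WT) the binomial variance of the calls. Their files were therefore not copies of each other. Calls on the same read are linked, so the ratio cannot show whether a single library was sequenced again. The labels do not say whether replicates came from separate cultures, so p-values measure the spread between these libraries, which may be technical. RRBS reads carry no molecular identifiers, and intervals therefore cover counting error and the spread modelled here only.

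Averaged over positions, KO and WT were nearly at the same level at 168 h. Over 893972 positions with 1 or more calls in all 4 libraries, mean methylation was 11.1% and 10.99% in the KO libraries and 10.8% and 10.7% in the WT libraries, a difference of 0.287 percentage points. Pooled calls of all autosomal positions gave 11.3% and 11.0% against 11.3% and 11.3%, a difference of -0.132 points. The level varied with the depth required and did not fall steadily with it. Over 95838 positions with 5 or more calls in all 4 libraries, mean methylation was 3.89% and 3.91% in the KO libraries and 3.69% and 3.70% in the WT libraries, a difference of 0.203 points. Both KO libraries lay above both WT libraries, but an exact two-sided permutation test of 2 against 2 libraries cannot go below p = 0.333, which is the value obtained. The direction rested on which positions were averaged: over 1598 positions with 10 or more calls in all 4 libraries the KO was below the WT (8.36% and 8.73% against 10.3% and 10.46%; difference -1.83 points). Over the 28133 tiles it was 0.819 points above the WT (6.89% and 6.82% against 6.01% and 6.06%).

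Single tiles moved both ways. Quasi-binomial regression on the methylated and unmethylated calls of each tile, with the variance between libraries moderated by limma's squeezeVar and Benjamini-Hochberg adjustment over all 28133 tiles, called 144 tiles higher in the KO (0.512% of the tiles tested) and 115 lower (0.409%) where the adjusted p was under 0.05 and KO and WT differed by at least 20 points. These calls depended on the variance model. The trend in the moderation was added after the design was set, and with the moderation the design named, without a trend or floor, 0 tiles were called in either direction (squeezeVar; 4725 tiles at an unadjusted p under 0.05). Both counts were also 0 with each tile's own variance, with thinned calls, with limma on position percentages and with the replicate block (2682, 995, 2541 and 1318 tiles at an unadjusted p under 0.05), and limma on log2 ratios of calls gave 42 higher and 16 lower. The adjusted p values given for named tiles are those of the trended moderation.

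Together the called tiles were 259 (0.921%), and in all of them the KO libraries did not overlap the WT libraries. Both KO libraries lay above both WT libraries in 7024 tiles (25.0%) and below both in 2030 (7.22%), so most of the smaller differences were towards higher methylation in the KO. The median difference over all tiles was 0.326 points, with 17467 tiles above 0 and 8238 below. These shares mainly describe tiles near 0. The 22803 tiles below 10% in serum libraries of E14 cells averaged 1.23% in the KO and 0.652% in the WT. Whether differences of this size are technical was not tested.

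The called tiles came from opposite ends of the WT range. In tiles called higher, the WT libraries had medians of 6.64% and 5.41% and the KO libraries of 36.6% and 34.6%. In tiles called lower, the WT libraries had medians of 83.3% and 82.9% and the KO libraries of 45.5% and 46.3%. These levels describe what the call selected and carry no test.

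**Figure D1:**
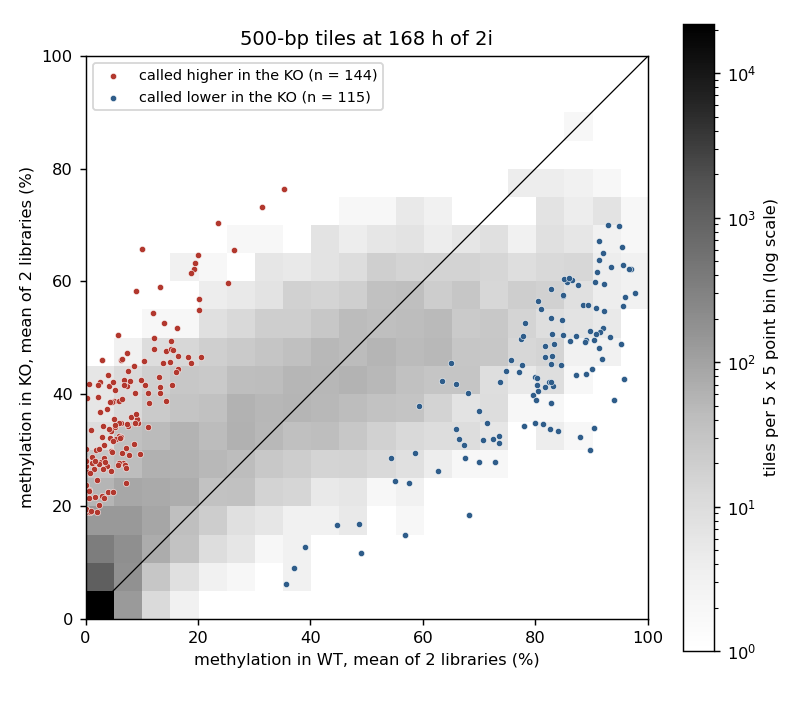
Methylation of 500-bp tiles at 168 h of 2i, the mean of the 2 WT libraries (x axis, %) against the mean of the 2 KO libraries (y axis, %). Grey bins count all 28133 tiles on a log scale, red points are the 144 tiles called higher in the KO and blue points the 115 called lower; red points crowd at low WT levels and blue points lie mostly at high WT levels, with KO levels spread between 6.06% and 76.3% over both sets.

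Depth limited what could be seen. The 95% interval of the difference lay within 20 points either way in 86.7% of all tiles, but these are mainly tiles with almost no methylation in any library. Of 4179 tiles with a mean of 10% or more over the 4 libraries, only 603 (14.4%) had an interval inside 20 points. The median standard error over all 4179 was 9.25 points. A tile of this kind that was not called therefore was not shown to be alike in KO and WT. Fewer or no tiles were called with a library left out: without KO library 1 or without KO library 2 no tile passed in either direction (quasi-binomial test; 1094 and 997 tiles at an unadjusted p under 0.05). Without WT library 1 the test called 12 higher and 14 lower tiles, of which 12 and 12 were among those called with all libraries. Without WT library 2 it called 51 and 57, of which 41 and 47 were.

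At the threshold, the tile just inside on the higher side was chr1:138468001-138468500, with 15% and 22.9% in the KO libraries and 0% in both WT libraries. The tile just outside was chr2:165633001-165633500, with 0% and 31.6% against 3.64% and 0%. On the lower side the tile just inside was chr12:20239501-20240000 (46.5% and 44.4% against 65.6% and 64.3%), and the tile just outside was chr13:120277001-120277500 (30% and 29.6% against 47.3% and 53.5%). Coordinates are 1-based on NCBIM37 throughout. No annotation of that build was used here, so no gene is named for a tile.

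Of the 8 tiles with the largest gains, 7 were methylated in the majority of KO calls, H5 being the exception, and all 8 in a minority of WT calls. The first, H1 (chr6:31157001-31157500), had 50% and 81.5% in the KO libraries against 15.4% and 4.88% in the WT libraries. Its pooled difference was 54.4 ± 9.17 points (SE; adjusted p = 0.000101, quasi-binomial test), from 27 to 41 calls per library. The KO libraries of this tile lay further apart than the WT libraries but did not reach them. The spread between the libraries of H1 was 4.39 times the binomial variance, while the test used 1.66 times. Its SE and adjusted p therefore do not carry this spread. The difference was 71.5 points without KO library 1 and 40 points without KO library 2.

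H2 (chr5:137407501-137408000) was the deepest of these tiles, with 60 to 106 calls per library. It had 65.6% and 50.9% in the KO libraries and 7.95% and 10% in the WT libraries, a difference of 47.7 ± 6.38 points (SE; adjusted p = 1.48e-07, quasi-binomial test). The gain was not carried by a single cytosine. At all 6 positions of H2 with 10 or more calls in each genotype the KO was above the WT, with a median of 55.3% (11.8% to 77.8%) against 7.14% (7.14% to 14.3%); neighbouring positions share reads and are not replicates.

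H5 (chr19:53772501-53773000) was close to unmethylated in the WT. It had 35.7% and 47.8% in the KO libraries against 1.37% and 0% in the WT libraries, and the difference was 44.2 ± 6.22 points (SE; adjusted p = 2.15e-08, quasi-binomial test). Unlike H1 and H2, it was also higher in the KO at the earlier times: at 96 h the KO libraries had 31.5% and 38.7% and the WT libraries 6.85% and 5.77%. In serum the KO mean was 74.5%, and the single WT library had 37.0%.

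The other 5 tiles of this group were H3 (chr17:27361501-27362000), H4 (chr2:84350501-84351000), H6 (chr15:27831001-27831500), H7 (chr11:10949001-10949500) and H8 (chr5:113056501-113057000). Their differences lay between 43.0 and 46.7 points, with adjusted p from 0.000337 for H4 to 0.0238 for H6 (quasi-binomial test). The difference of H3 fell from 46.7 to 27.8 points without KO library 2. Their KO libraries lay between 46.4% and 83.3% and their WT libraries between 6.67% and 40%. In each of these 5 tiles the KO was below the WT at 96 h. The spread between libraries was 2.97 to 3.91 times the binomial variance in H3, H4, H6 and H8. The test used 1.70 to 1.94 times, so their adjusted p does not carry this spread.

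**Figure D2:**
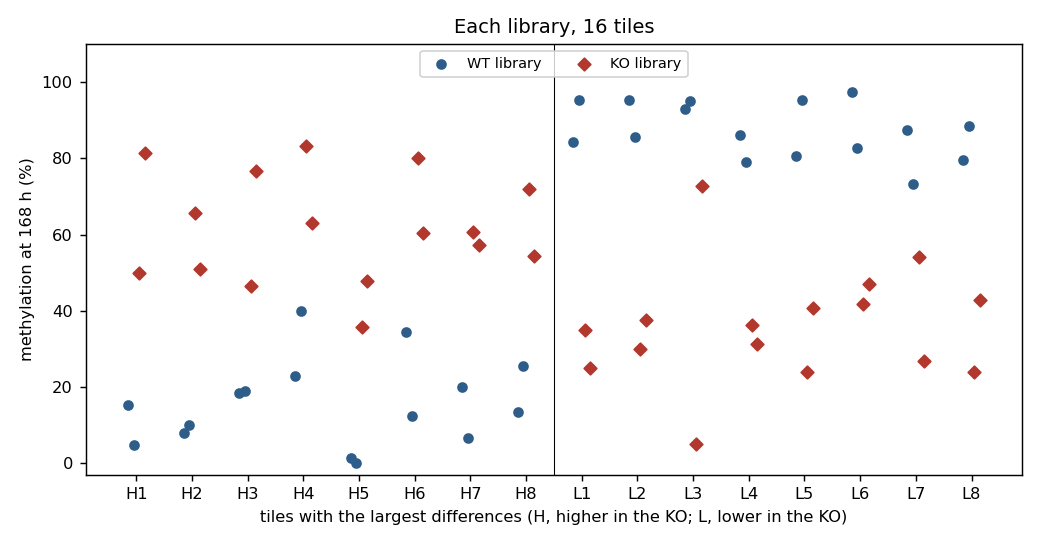
Methylation (%) of each library at 168 h in the 16 tiles with the largest differences, 8 higher in the KO (H1 to H8) and 8 lower (L1 to L8), each point a library. KO and WT libraries do not overlap in any of the 16, which the choice of tiles required; the KO libraries of L3 stand far apart, at 5% and 72.7%.

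The tiles with the largest losses were highly methylated in the WT, with 73.3% to 97.5% in its libraries. L4 (chr10:11211501-11212000) was the deepest, with 81 to 348 calls per library. It had 36.2% and 31.3% in the KO libraries and 86.2% and 79.0% in the WT libraries, a difference of -50.7 ± 5.29 points (SE; adjusted p = 7.85e-12, quasi-binomial test). At all 8 of its positions with 10 or more calls in each genotype the KO was below the WT, with a median of 56.8% (11.8% to 76.2%) against 89.6% (70.6% to 100%). These positions hold only part of its calls. The KO had 11.8% and 14.7% at 442 and 451 bp into the tile, and 40.9% to 76.2% at the other positions. With equal weight per position the difference of L4 was -38.8 points.

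L1 (chr13:52384501-52385000) had the largest loss. Its KO libraries had 35% and 25% and its WT libraries 84.2% and 95.2%, a difference of -58.1 ± 10.5 points (SE; adjusted p = 0.000634, quasi-binomial test) from 20 to 38 calls per library. L2 (chr6:119825001-119825500) had 30% and 37.7% against 95.2% and 85.7%. Both tiles had a wide gap between the genotypes and at most 69 calls in any library.

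L3 (chr2:84740001-84740500) was called with a difference of -53.3 ± 10.4 points (SE; adjusted p = 0.00138, quasi-binomial test), but its KO libraries disagreed. They had 5% and 72.7%, from 20 and 22 calls, against 92.9% and 95% in the WT libraries. The spread between these libraries was 10 times the binomial variance, while the variance used in the test was 1.51 times, so its adjusted p does not carry this spread. The difference was -21.0 points without KO library 1 and -88.8 points without KO library 2.

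The other 4 tiles were L5 (chr6:71986501-71987000), L6 (chr1:109423501-109424000), L7 (chr18:5438501-5439000) and L8 (chr10:76077001-76077500). Their differences lay between -50.3 and -45.2 points, with adjusted p from 0.00113 for L6 to 0.00591 for L7 (quasi-binomial test). The difference of L7 was -26.5 points without KO library 2. Their KO libraries lay between 24% and 54.2% and their WT libraries between 73.3% and 97.5%. The spread between libraries was 2.25 to 3.76 times the binomial variance in L5, L6 and L7. The test used 1.71 to 1.76 times, so their adjusted p does not carry this spread. At 96 h, L2 to L8 were each already lower in the KO, with KO means between 33.0% and 56.4% and WT means between 83.5% and 95.1%.

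The direction of the difference varied with the methylation of a tile in serum. Tiles were classed by their methylation in E14 serum, from libraries that took no part in the test. In 22803 tiles below 10% in E14 serum, the KO libraries averaged 1.27% and 1.19% and the WT libraries 0.536% and 0.768%, a difference of 0.579 points. In 1964 tiles of 10 to 40%, they averaged 13.9% and 14.2% against 7.65% and 7.70%, a difference of 6.40 points.

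In 1817 tiles of 40 to 80%, the KO libraries averaged 35.6% and 35.7% and the WT libraries 31.5% and 30.7%, so the KO was 4.55 points higher. In 1374 tiles of 80% or more the order turned, with 49.3% and 48.8% in the KO libraries against 57.7% and 55.9% in the WT libraries, a difference of -7.75 points. KO and WT libraries did not overlap in any of the 4 classes; the exact two-sided permutation p was 0.333 in each, the smallest that 2 against 2 libraries allow. Classing by the UHRF1 WT serum library instead of E14 brought the difference of the top class to -1.49 points and that of the 10 to 40% class to 4.09. With 50 or more calls per library and E14 classes, the top class held 47 tiles and its difference was -16.6 points.

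The calls were divided in a like way by E14 serum. Of the tiles below 10% in E14 serum, 4 were called higher and 1 lower. The class of 10 to 40% held 48 called higher (2.44% of its tiles, against 0.512% of all tiles) and 2 called lower, and the class of 40 to 80% held 72 (3.96%) and 20 (1.10%). At 80% or more, 14 tiles were called higher (1.02%) and 82 lower (5.97%, against 0.409% of all tiles). A call needed a difference of 20 points. The WT mean at 168 h was 0.652% in the class below 10% and 7.68% in that of 10 to 40%. Tiles of these classes therefore had little room to be called lower, and their split by direction carries no weight. This division depended on the serum library used for the classes. By the UHRF1 WT serum library, the class of 80% or more held 75 tiles called higher (2.66%) and 110 called lower (3.90%). The class of 40 to 80% held 48 (3.54%) and 5 (0.368%), and the class of 10 to 40% held 17 (0.708%) and 0.

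**Figure D3:**
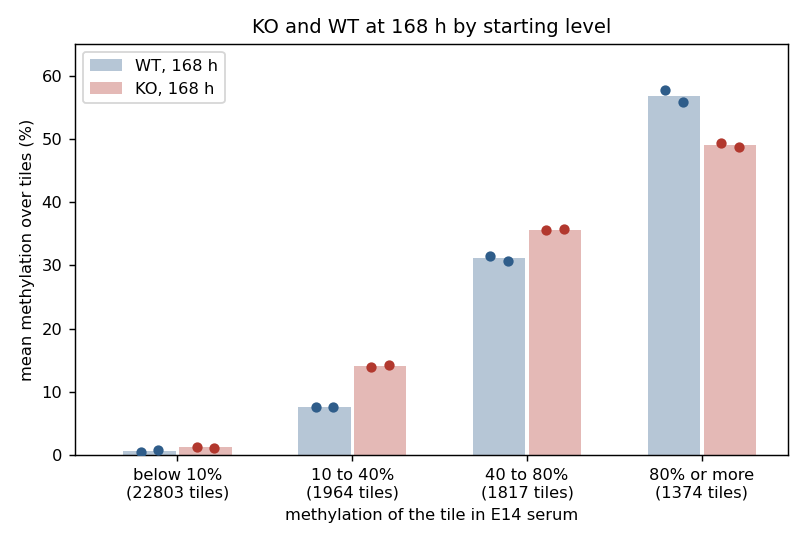
Mean methylation over tiles (y axis, %) at 168 h in WT (blue) and KO (red), for tiles in 4 classes of methylation in E14 serum (x axis). Bars are means of 2 libraries and points are the libraries; the KO is above the WT in the first 3 classes and below it in the class of 80% or more (49.3% and 48.8% against 57.7% and 55.9%).

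How the difference arose was followed in the same lines at 96 h. Between 96 h and 168 h the KO rose and the WT went on falling. Over 83271 positions with 5 or more calls in all 8 libraries, the KO libraries had 3.22% and 3.19% at 96 h and 4.04% and 4.07% at 168 h. The WT libraries had 5.64% and 5.53% at 96 h and 3.85% and 3.85% at 168 h.

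The KO thus stood 2.37 points below the WT at 96 h (difference -2.37) and 0.198 points above it at 168 h, a change of 2.57 points. An exact two-sided permutation of genotype within each time gave p = 0.0556, the smallest that its 36 arrangements allow. Over 1332 positions with 10 or more calls the change was also positive (3.59 points; exact permutation p = 0.333), although the KO stayed below the WT at both times there. The 168 h KO libraries were the shallow ones described above, with 49.4% and 50.4% of positions at a single call. The KO libraries of 96 h had 24.9% and 26.2%. The part of this in the change was not tested. With only those positions of each tile that had calls in all 8 libraries, 735 tiles changed, 734 of them towards the KO. With all positions 1111 changed. Shared positions do not make the depth of the libraries equal.

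In single tiles this change had nearly a single direction. Among 28035 tiles covered in all 8 libraries, the interaction of genotype and time was called in 1110 tiles towards the KO (3.96%) and in 1 tile towards the WT (0.00357%; quasi-binomial interaction test, adjusted p under 0.05 and a change of 20 points or more). Of these tiles, 985 were below the WT at 96 h and above it at 168 h. This carries no weight, since all 1111 were called for a change of 20 points or more. The count depended on the libraries and the test: it fell to between 0 and 208 when any of the 8 libraries was left out, and it was 0 with limma on log2 ratios of calls, for which the fits are listed with the processing alternatives.

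Tiles called higher and tiles called lower had different histories. At 96 h, 112 of 114 tiles of the lower set were called lower in the KO (98.2%), against 27.0% of all tiles tested at that time. Of 2978 uncalled tiles with 40% or more in E14 serum, 2275 were lower in the KO by 20 points or more at 96 h, as were 111 of the 114. The median difference of the lower set was -35.7 points at 96 h and -35.6 points at 168 h. Of the higher set, 17 of 143 tiles were called lower at 96 h (11.9%) and 8 were called higher, against 0.0658% of the 53216 tiles. By 20 points or more, 18 of the 143 were lower. The median difference of the higher set went from -7.76 points at 96 h to 28.0 points at 168 h. The 168 h values of both sets are what the call selected. The interaction was called in 108 of these 143 tiles and in 0 of the 114 lower tiles; it shares its 168 h libraries with the rule, so these counts are given without weight.

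At the earlier times the KO was below the WT in all covered tiles of the lower set and in most of the higher set. All 82 tiles of the lower set covered at 24 h were lower in the KO, with a median difference of -13.6 points, and 13 were called (15.9%, against 5.30% of all tiles). At 48 h, 49 of 82 were called lower (59.8%, against 12.8%), and at 72 h, 107 of 114 (93.9%, against 38.2%). Most of all tiles had little methylation to lose. Uncalled tiles with 40% or more in E14 serum were also lower in the KO. Their KO means were 63.2%, 49.0% and 39.5% at 24, 48 and 72 h, against WT means of 83.4%, 79.3% and 70.7%. In lower tiles covered at all times the means were 76.8%, 65.3% and 56.9% against 91.6%, 90.0% and 87.3%. In the higher set, 41 of 109 tiles were called lower at 24 h (37.6%), 65 of 127 at 48 h (51.2%) and 67 of 144 at 72 h (46.5%). The KO was above the WT in 23, 24 and 23 of them, and 3, 4 and 6 were called higher. Of the tiles tested at each of these times, 0.0471%, 0.0231% and 0.0417% were. The median difference of the higher set narrowed from -26.3 points at 48 h to -18.7 points at 72 h, while that of the lower set widened from -25.0 to -31.2 points.

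The time courses of the levels showed the same. In 90 of the 144 higher tiles covered at every time, the median fell in the WT from 75.8% in serum to 25.6% at 96 h and 6.27% at 168 h. In the KO it fell from 61.6% in serum to 21.0% at 96 h and stood at 34.2% at 168 h. E14 cells, another wild type of the series, went from 45.9% in serum to 8.74% at 168 h in 135 of the 144 tiles. The order of KO and WT at 168 h is what the call selected.

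In 56 of the 115 lower tiles, the WT median stayed high, from 95.7% in serum through 86.2% at 96 h to 82.9% at 168 h. In the KO the median fell from 92.1% in serum to 47.5% at 96 h and was 49.7% at 168 h. E14 had 92.1% in serum and 75.8% at 168 h over 105 of the 115 tiles. The distance of KO and WT at 168 h is again what the call selected, while serum, 96 h and E14 were not used by it.

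**Figure D4:**
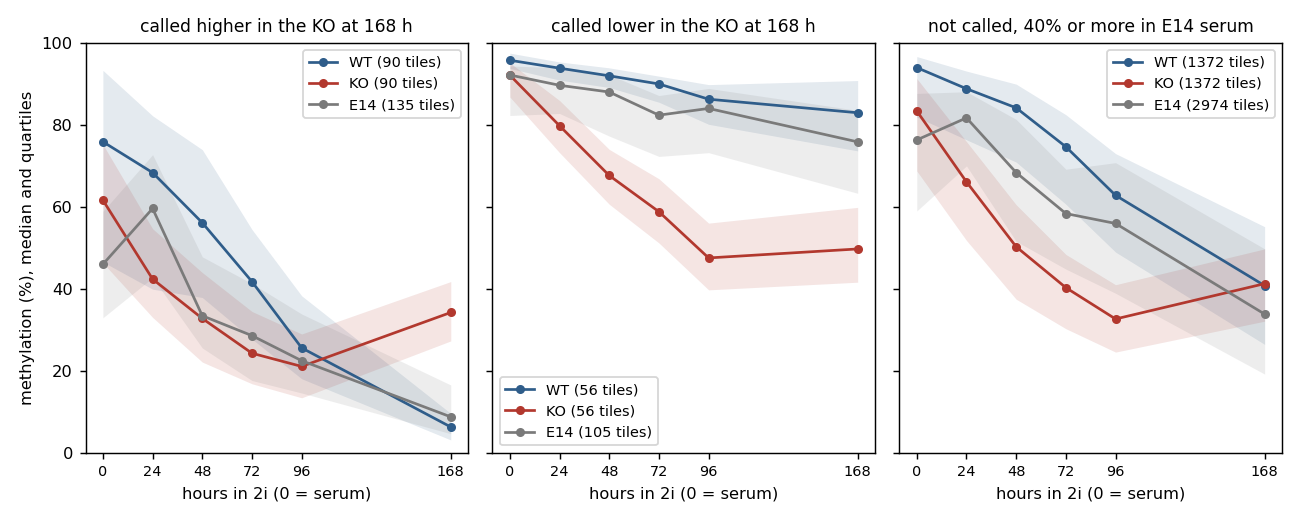
Methylation (y axis, %) by hours in 2i (x axis, 0 is serum) in tiles called higher in the KO at 168 h, tiles called lower, and tiles not called that had 40% or more in E14 serum. Lines are medians over tiles covered at all times and bands are quartiles. The KO median turns upward after 96 h in the first panel (21.0% to 34.2%) and in the third (32.6% to 41.2%). It stays level in the second (47.5% and 49.7%). In the first and second panels the 168 h values were selected by the call.

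Compared tile by tile against E14 at 168 h, 133 of 136 higher tiles were above E14 in the KO, with a median difference of 25.9 points. The WT differed from E14 by a median of -1.47 points in the same tiles. In the lower set the KO was below E14 in 99 of 105 tiles, with a median difference of -26.9 points, and the WT was above E14 in 89 of 105, with a median of 8.52 points. The WT was likewise above E14 in 2168 of 2988 uncalled tiles that had at least 40% in E14 serum (median 5.63 points), and the KO in 1971 of 2988 (median 6.75 points). E14 was not used by the rule, but the KO and WT values were chosen by it.

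Tiles that were not called but had been methylated in serum were mostly lower in the KO at 96 h and about evenly divided at 168 h. In the 3003 of them that had at least 40% in E14 serum, the median difference was 0.231 points at 168 h, with 1522 tiles higher and 1481 lower in the KO, whereas at 96 h 2932 of 2978 were lower in the KO with a median of -28.6 points. From 96 h to 168 h the KO rose in 2407 of 2984 tiles (median 7.85 points) and the WT fell in 2925 of 2997 (median -19.3 points). In the lower set these changes were small, with medians of -1.88 points in the KO and -2.10 points in the WT. The call chose low KO and high WT values in the same 168 h libraries, so this contrast with the uncalled tiles carries no weight. At 168 h the KO spanned a narrower range than the WT: over 1372 tiles covered at all times KO quartiles were 32.1% and 49.7% and WT quartiles 26.4% and 55.1%, around medians of 41.2% and 40.7%.

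**Figure D5:**
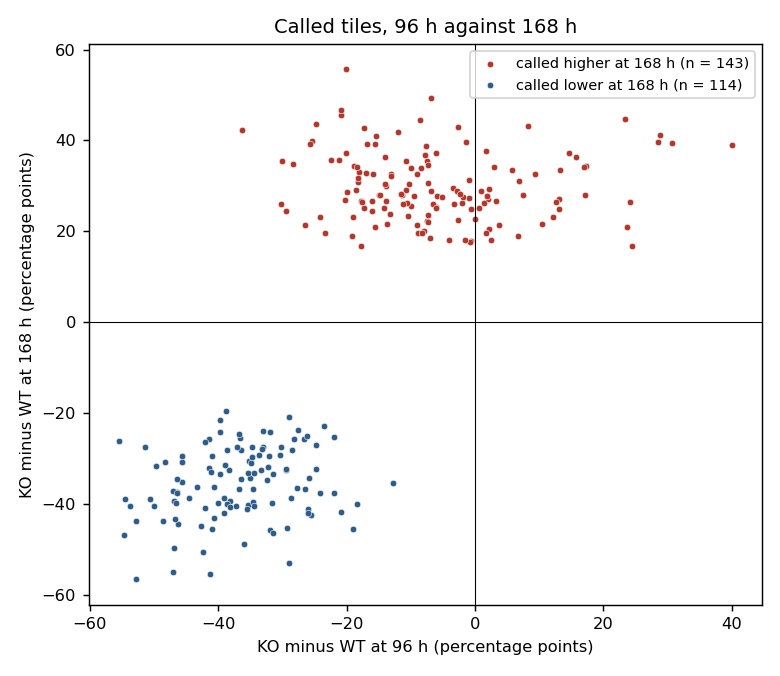
KO minus WT methylation (percentage points) at 96 h (x axis) against 168 h (y axis) in tiles called at 168 h and covered at both times, each point a tile. The 114 tiles called lower (blue) were all below 0 at 96 h, and of the 143 called higher (red) 104 were below 0 and 39 above 0 at 96 h; the split along the y axis is what the call selected.

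In serum the KO was already lower in most tiles of both sets, 87 of 112 of the higher set and 68 of 85 of the lower set, as it was in 1816 of 2117 uncalled tiles with 40% or more in E14 serum. In 25 of 112 tiles of the higher set it was instead higher in serum, 10 of them by 20 points or more, as in H5; of the 2117 uncalled tiles 301 were higher, 25 of them by 20 points or more. The WT had a single usable serum library, and this library stood apart. The share of its calls that fell on chromosome 8 was 1.00 times the mean of the E14 libraries, whereas the other 22 libraries of the UHRF1 lines had 1.14 to 1.20 times and the 12 E14 libraries 0.985 to 1.02 times. Comparisons with WT serum, its class limits included, are therefore with a library that differed from the later WT libraries in this respect. The 4 libraries of 168 h are among the 22.

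The surroundings of the 2 sets were described by histone H3 lysine 9 dimethylation (H3K9me2), a mark that UHRF1 can bind. It was taken from bisulfite-sequenced chromatin of E14 ESCs (ChIP-BS), as the log2 ratio of bound over input calls in windows of 10 kb, and says nothing of H3K9me2 in the KO itself. In 2i the median ratio was -0.06 around 108 tiles called lower, -1.96 around 114 tiles called higher and -1.15 around 2291 tiles not called with 40% or more in E14 serum. In serum the medians lay close together, at -0.55 around lower, -0.83 around higher and -0.68 around such uncalled tiles, and the quartiles overlapped. In 2i the quartiles of the higher (-2.57 to -0.22) and lower set (-0.47 to 0.38) overlapped in a narrow range and both overlapped those of the uncalled tiles (-2.43 to 0.05). The differences between the sets were not tested. Over all 20365 tiles with a value in 2i it was -2.27, since RRBS tiles lie mostly in windows poor in the mark. Methylation of the same windows in the 2i input was 51.1% around lower tiles, 29.5% around higher tiles, 33.3% around such uncalled tiles and 20% over all tiles.

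Tiles in the tenth of windows highest in H3K9me2 in 2i had a lower mean in the KO than in the WT. In these 163 tiles the KO libraries averaged 35.5% and 36.7% and the WT libraries 43.1% and 42.6%, a difference of -6.76 points, against 0.792 points in the other 20202 tiles. The former also started higher, at 58.3% against 11.2% in E14 serum. Restricted to tiles that had at least 40% in E14 serum, the difference was -10.3 points in 111 tiles of the high windows (46.3% and 47.5% against 57.7% and 56.7%). It was -0.803 points in 2345 others. The tiles of the high windows still started higher, at 78.3% against 73.5% in E14 serum.

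These differences were not tested across tiles, which share libraries and windows. With high windows taken from serum ChIP-BS, the values were -5.54 points in 180 tiles and -0.422 points in 2740. Called tiles in the high windows were few, with 5 called lower (3.07%, against 0.510% in the other tiles) and 1 called higher (0.613%, against 0.559%). Among tiles that had at least 40% in E14 serum the shares called lower were close, at 4.50% in high windows and 3.92% in the others. The shares called higher were 0.901% (1 tile) and 2.86%.

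Called tiles were poor in CpGs for RRBS tiles. The median tile called higher had 10 cytosine positions with calls in E14 serum and the median tile called lower 9, against 23 over all tiles and 9 over tiles not called with 40% or more in E14 serum. They were spread over all 19 autosomes, with 2 (chromosome 13) to 15 (chromosome 11) tiles called higher and 2 (chromosomes 16 and 19) to 12 (chromosome 1) tiles called lower. As a share of the tiles tested, higher calls ran from 0.196% on chromosome 13 to 0.929% on chromosome 15, and lower calls from 0.198% on chromosome 19 to 1.00% on chromosome 18. Called tiles were mostly isolated: 6 of the 115 lower tiles and 0 of the 144 higher tiles had another tile of their set within 10 kb. No called tile of the opposite direction lay that near. Lower tiles near each other included chr2:98502501-98503000, with 1025 to 3425 calls per library, and chr2:98507001-98507500. The latter had 6174 and 12407 calls in the KO libraries and 94 and 43 in the WT libraries.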

How the data were processed

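The deposited RRBS and ChIP-BS files list, per the file headers and values, a percent methylation and the read counts behind it (methylated, unmethylated) for each covered cytosine. Per the labels and the submitters' processing notes the authors aligned reads with Bismark 0.12.3; positions fit NCBIM37. The deposited percent was not used, since levels were computed from the counts.

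Tiles (500 bp; at least 20 calls and 3 positions in every library) were compared by quasi-binomial regression (numpy 2.4.6) on counts. The variance was moderated with squeezeVar of limma 3.58.1 with a trend on the information of the tile and a floor of 1. The design had named moderation without a trend. The trend was added because on simulated data the test recovered 0 of 200 changed tiles without it. With the trend it recovered 80, and 1 of 50 where the change was 20 points. The simulated tiles all shared a single spread, so this cannot show that the trend holds for real tiles. The estimated prior was so strong that a tile's own spread does not enter its p. SEs come from the binomial variance times the moderated variance. Positions of ChIP-BS with over 20 calls were dropped, and windows needed 50 input and 10 bound calls.

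Named tiles are the 8 with the largest pooled difference per direction among called tiles whose libraries do not overlap, at most 1 per 10 kb, plus the tiles next to the threshold. The members, tests and lists were chosen with earlier results of these data known. Replicate numbers did not pair the libraries (correlation of same-numbered deviations -0.0057). A second UHRF1 WT serum file held very few positions and was not used, and neither were the TET files. Sequences and genes are not given, since no NCBIM37 reference was used.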

Additional observations from a re-analysis of the deposited data

Results flagged for a closer look

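The KO minus WT difference was not the same at 96 h and at 168 h in 1111 of 28035 tiles, by the interaction term of the quasi-binomial test (adjusted p under 0.05 and a change of 20 points or more). In 1110 of them the change was towards higher methylation in the KO and in 1 towards the WT. The 168 h KO libraries also had about 50% of positions at a single call (50.4% and 49.4%), against 26.2% and 24.9% in the 96 h KO libraries; the part of this in the count was not tested. With only positions that had calls in all 8 libraries the count was 735, of which 734 were towards the KO.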

How the results depend on the processing

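The genome-wide difference at 168 h turned negative with 10 or more calls per position (-1.83 points), with 20 or more (-2.04) and with pooled calls (-0.132); without each library in turn it was 0.191 to 0.215. The change between 96 h and 168 h stayed positive under every alternative run (2.52 to 4.74 points; 2.52 to 2.63 without each library). Counts of called tiles, higher and lower, were 396 and 327 with 10 or more calls, 12 and 21 with 50 or more, 93 and 71 with all UHRF1 libraries in a single fit, and 42 and 16 with limma on log2 ratios. With positions of more than 500 calls left out they were 144 and 110. Without a minimum difference they were 340 and 128 (72.6% higher, against 55.6%), and with 10 points 257 and 120 (68.2%). Both counts were 0 with each tile's own dispersion, with moderation lacking trend and floor (the form the design named; the trend was added later), with thinned calls, with limma on mean position percentages and with the replicate block, where 2682, 4725, 995, 2541 and 1318 tiles had an unadjusted p under 0.05; the estimated prior degrees of freedom were 1.74 with thinned calls and 2.37 with the block. Without each library they were 0 to 51 and 0 to 57; the estimated prior fell to 1.54 and 2.32 degrees of freedom without KO library 1 or 2. In these fits the lone library is assumed to vary like the other group. No tile called at 168 h was called in the opposite direction under any alternative on the same grid of tiles. The alternatives use the same reads, so an opposite call was hardly possible and its absence carries no weight. With 112 higher and 83 lower, tiles of positions with calls in all 4 libraries (added after seeing the data) kept 101 of 133 and 76 of 102 calls. Interaction tiles numbered 2919 with 10 or more calls, 124 with 50 or more, 735 with only positions with calls in all 8 libraries (added after seeing the data), and 0 with limma or the replicate block; without each library 0 to 208. The replicate numbers were not found to pair the libraries (correlation of deviations -0.0057). The 16 named tiles were chosen for large differences without overlap, and the alternatives use the same reads. That they kept their direction therefore carries no weight. The 16 named tiles kept their direction wherever they were tested (2 of them with 50 or more calls, 15 with 5 or more positions, 6 in the single fit, 14 with shared positions), but all 16 lost their call in each setting with a count of 0 in both directions, 8 with limma on log2 ratios, 12 without WT library 1 and 5 without WT library 2.

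Class differences moved with 50 or more calls to 0.379, 5.78, 3.70 and -16.6 points (the last over 47 tiles) and by UHRF1 WT serum to 4.09, 5.89 and -1.49 in the upper 3 classes; without each library they were 0.463 to 0.695, 6.26 to 6.53, 4.18 to 4.93 and -8.65 to -6.85. The H3K9me2-high tiles differed from the others by -7.55 points, by -4.22 with serum windows, by -9.51 among tiles of 40% or more in E14 serum and by -8.16 to -6.94 without each library. Depth limits tiles with a mean of 10% or more over the 4 libraries of 168 h, where the median SE was 9.25 points.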

Other observations

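Uncalled tiles next to called ones were few. Of the 13 tiles called higher that had an uncalled tile of 10% or more within 2 kb, the nearest such tile was higher in the KO at 10 and lower at 3, with a median difference of 12.98 points. Of the 10 tiles called lower with such a neighbour, it was lower at 6 and higher at 4, with a median of -5.22 points.

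The calls of the KO libraries in the tested tiles fell on chromosome 17 at 0.863 times the share of the WT libraries, while the other autosomes lay between 0.976 and 1.03 times; the median difference of chromosome 17 tiles was 0.328 points, against 0.326 over all tiles.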
